A study of Zea mays with 12 samples.

Results

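The maize genes tb1, gt1, tru1, ba1 and bif2, which control axillary buds and branching, were followed by their gene model IDs in the expression table, as 5 of its 39324 IDs. The IDs are Zm00001d033673 for tb1, Zm00001d028129 for gt1, Zm00001d042111 for tru1, Zm00001d042989 for ba1 and Zm00001d031068 for bif2, all B73 version 4 models by the header of the table. The pairing of ID and name is the one by which the set was defined, since neither the deposited tables nor the reference gene table places these names beside version 4 IDs. RNA was measured in dissected shoot tips of maize inbred line B104, germinated for 7 days. The tips held the shoot apical meristem, the leaf primordia from plastochron 0 to plastochron 5 and the leaf sheath, with root, embryo and coleoptile cut away. The mutants were homozygous for CRISPR/Cas9 knock-outs of both TOO MANY LATERALS genes (tml1;tml2), and the controls were B104 wild types segregating from the same edited material. There were 3 biological samples of each genotype, with the numbers 2, 3 and 4, and the 2 sequencing runs of a sample were summed here. The edited alleles were selected free of the transgene by segregation, and how many independent editing events stand behind them is not stated in the labels.

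An axillary bud forms in the axil of a leaf, and its meristem either arrests or grows into a branch. In maize, bif2 and ba1 act at the start of this process, when axillary meristems are laid down. In the same species tb1, gt1 and tru1 act later, on whether a bud that has formed grows out and what it becomes. tb1 encodes a TCP transcription factor that holds buds back, and its altered expression underlies the single-stalked habit of maize against its branched ancestor teosinte. gt1 encodes a class I homeodomain leucine zipper transcription factor that also represses bud growth and depends on tb1. tru1 encodes an ankyrin-repeat protein with a BTB/POZ domain and is a direct target of tb1 in axillary branches. ba1 encodes a basic helix-loop-helix transcription factor needed for axillary meristems to form. bif2 encodes a serine/threonine kinase related to Arabidopsis PINOID, acts in auxin transport and phosphorylates BA1.

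Summed over both runs, the samples held 27213045 to 31980554 estimated counts. Levels are given as CPM (counts per 1000000, on library sizes scaled by TMM, edgeR's trimmed mean method) for one gene across samples, and as TPM (transcripts per 1000000, which corrects for length) between genes. A floor of 3 counts, used here as the one-sided limit for a count of 0, came to 0.0971 to 0.106 CPM per sample and covers counting error only. The two-sided exact 95% Poisson interval of a count of 0 reaches somewhat higher, to 0.119 to 0.131 CPM. On the first principal component, with 46% of the variance of log2 CPM, the genotypes were not fully parted: wild types 2 and 4 scored -84.0 and -64.5, mutant 2 -3.21, wild type 3 9.88, mutant 3 26.2 and mutant 4 115.6. The identity of the tissue and of the targeted genes could not be checked by markers, because 0 of the version 4 IDs were found among the 49888 genes of the reference table. For the same reason the other genes of the branching and axillary meristem pathways, and markers of other tissues, were not analysed here.

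The genes gt1 and tru1 were detected in these vegetative tips, with more than 3 counts in all 6 samples. In contrast, tb1, which acts late as they do, and ba1 were at or next to 0 throughout, and bif2 lay at the limit of detection. Of the 5 genes 2 were therefore detected in every sample, where 55.6% of all IDs in the table were. In bulk tissue, fewer cells of a type and less RNA per cell cannot be told apart. The same 2 genes were the only ones of the 5 to pass edgeR's filter on low counts, and neither differed between mutant and wild type beyond the spread among samples.

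The bud repressor tb1 had 0 counts in each of the 12 run columns. Over all 6 libraries together the same floor of 3 counts corresponds to 0.0169 CPM. Of the 39324 IDs, 11305 likewise had 0 counts in every sample. The tables do not show whether reads of tb1 could be assigned to this gene model, so the floor limits its level only if they could. No fold change can be given for it.

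The axillary meristem regulator ba1 had an estimated count of 0.5 in run 1 of wild type 2 and 0 in the other 11 run columns. That fraction amounts to a TPM of 0.105 in that run, and rounds to 0 counts for the sample. The ba1 gene was therefore under the limit of 3 counts in all 6 samples and, like tb1, has no fold change from counts.

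The kinase gene bif2 gave 7, 11 and 0 counts in wild types 2, 3 and 4. In mutants 2, 3 and 4 it gave 3, 5 and 4 counts. The wild types thus held both the highest and the lowest value, and 4 of the 6 samples exceeded 3 counts. The runs of a sample did not repeat each other closely at this level, since wild type 3 had 2 counts in run 1 and 9 in run 2. Summed over each genotype, bif2 had 18 counts in the wild types, 0.203 CPM with an exact 95% Poisson interval of 0.120 to 0.321. In the mutants it had 12 counts, 0.135 CPM with an interval of 0.0696 to 0.235, and these intervals overlap and cover counting error only. Because bif2 failed the filter on low counts, it was fitted in an edgeR fit with the filter off, where the log2 fold change, mutant over wild type, was -0.57 (SE 1.21) with an adjusted p of 0.85. The direction turned to 0.15 without wild type 3 and to 0.19 with run 1 alone, and the value was -1.14 without wild type 4. A difference in bif2 was not detectable at these low counts and with this spread among the 6 samples. How far depth or the spread limited the comparison was not tested.

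**Figure D1:**
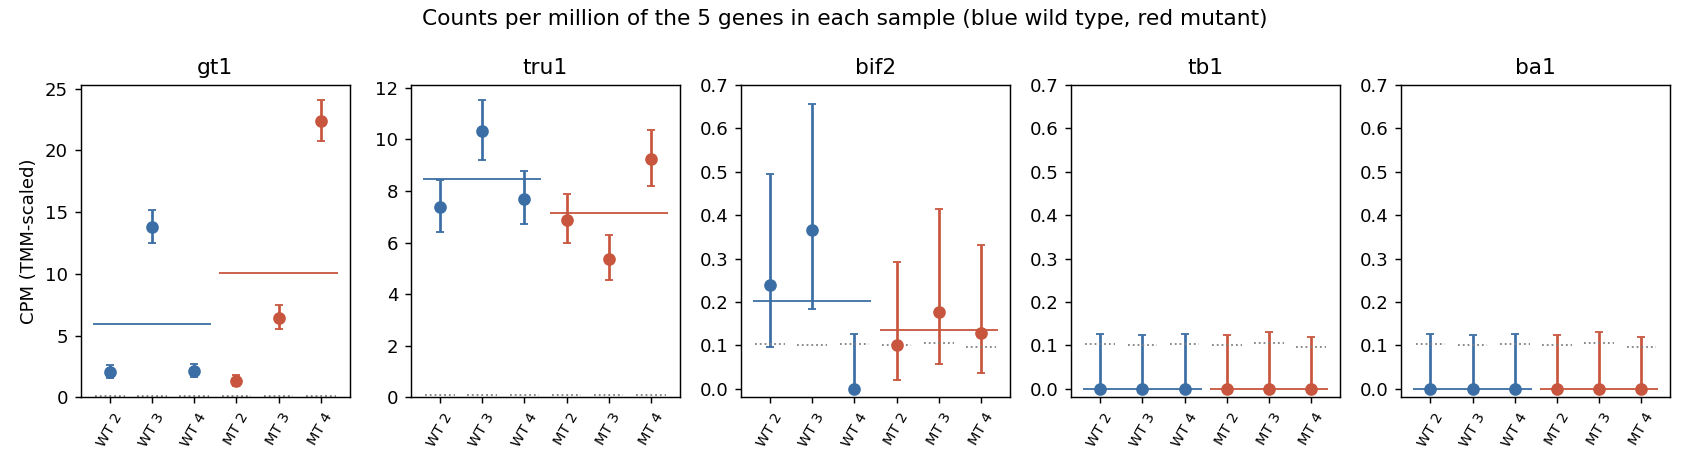
Level of each gene in CPM (vertical axis, scaled per panel for gt1 and tru1 and shared by bif2, tb1 and ba1) in the 3 wild-type (WT) and 3 mutant (MT) samples. Points are samples with exact 95% Poisson intervals, horizontal lines are group means and dotted marks are 3 counts. gt1 runs from 1.30 to 22.4 CPM with samples of both genotypes high and low, tru1 stays between 5.35 and 10.3 CPM, and tb1 and ba1 lie at 0.

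The homeodomain gene gt1 was detected in every sample but at very unequal levels. In the wild types it stood at 2.02 CPM in sample 2, 13.8 CPM in sample 3 and 2.15 CPM in sample 4. In the mutants it stood at 1.30 CPM in sample 2, 6.45 CPM in sample 3 and 22.4 CPM in sample 4. Each genotype thus had samples with a low and samples with a high level, and the groups overlapped. From the lowest sample to the highest, gt1 differed 17.2-fold. The exact 95% Poisson interval of the lowest sample reached 1.78 CPM and that of the highest began at 20.7 CPM, so counting error covers little of this range.

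The 2 runs of a sample, sequenced from the same material, gave close values for gt1. Wild type 3 had 211 and 203 counts in runs 1 and 2, mutant 3 had 84 and 98, and mutant 4 had 380 and 311. The largest ratio between the runs of one sample was 1.34, in mutant 2 with 23 and 16 counts. For tru1 the largest such ratio was 1.25, and for bif2 it was 4.82 among the samples with counts in both runs. The differences in gt1 between samples were therefore repeated in each run, while those in bif2 were not.

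**Figure D2:**
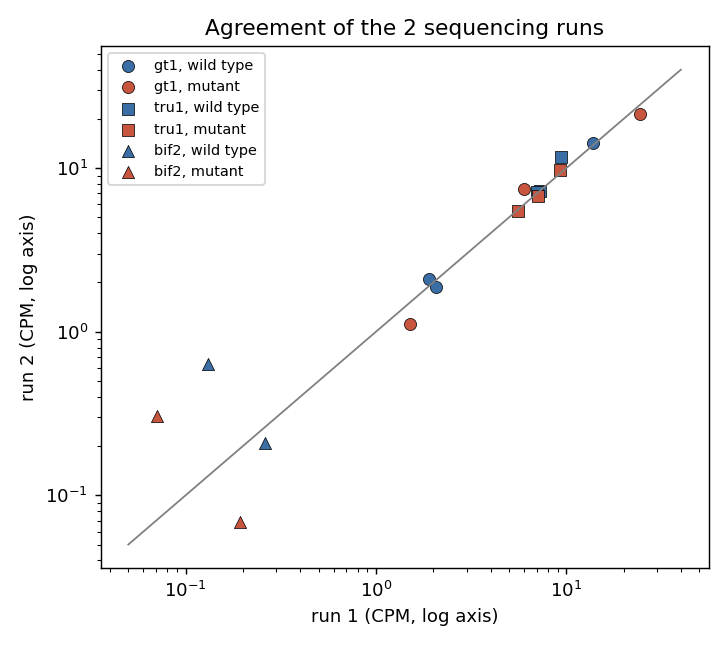
Level in run 2 (vertical) against run 1 (horizontal) in CPM on log axes, for gt1, tru1 and bif2 in each sample with counts in both runs; the line marks equal values. gt1 and tru1 lie near the line, with a largest ratio of 1.34 and 1.25, and bif2 scatters with ratios up to 4.82.

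The mean of gt1 was 10.0 ± 11.0 CPM in the mutants and 5.98 ± 6.75 CPM in the wild types (SD, n = 3 each). The SD exceeded the mean in both genotypes. In edgeR's quasi-likelihood test the log2 fold change, mutant over wild type, was 0.75 (SE 1.13, 95% interval -1.97 to 3.46), with an adjusted p of 0.77. On the linear scale that interval runs from 0.255-fold to 11.0-fold, so neither a large rise nor a large fall in the mean is outside it. An exact two-sided permutation test of log2 CPM gave p = 0.70, where 3 samples against 3 cannot go under 0.10. The direction of the gt1 difference turned on 1 library: without mutant 4 the log2 fold change was -0.63 (SE 1.11). Without wild type 3, the high control, it was 2.26 (SE 1.12), with an edgeR adjusted p of 0.37.

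The direct tb1 target tru1 was far more even. It stood at 7.38, 10.3 and 7.70 CPM in wild types 2, 3 and 4. In mutants 2, 3 and 4 it stood at 6.88, 5.35 and 9.23 CPM. The highest tru1 value was in a wild type and the lowest in a mutant, with the other samples of both genotypes between them and the groups overlapping. From the lowest to the highest sample tru1 differed 1.93-fold. The mean was 7.15 ± 1.95 CPM in the mutants and 8.46 ± 1.61 CPM in the wild types (SD, n = 3 each).

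In edgeR's test tru1 had a log2 fold change of -0.24 (SE 0.27, 95% interval -0.90 to 0.41) and an adjusted p of 0.69. That interval corresponds to 0.538-fold to 1.33-fold, which includes neither a 2-fold rise nor a fall to 0.5-fold; the interval is not adjusted for the number of genes. In 6 of the 17 alternatives the tru1 interval did reach 0.5-fold (run 2 alone, the replicate block, and without wild type 2, wild type 4, mutant 2 or mutant 4), and in 0 of them did it reach 2-fold. The exact two-sided permutation test gave p = 0.40. The value stayed below 0 in every alternative run, from -0.47 without mutant 4 to -0.07 without mutant 3. In the fit on log2(TPM + 1) the median gene shifted by 0.13, and tru1, at -0.10 there, lay 0.23 below that median.

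The same tests over the whole table give the background for gt1 and tru1. edgeR called 0% of the 22772 genes tested, with a lowest adjusted p of 0.27, and neither of the 2 members was called. Without adjustment, 2784 genes, 12.2% of those tested, had an edgeR p under 0.05. That count fell to 1348 genes when wild type 2 was left out, to 1475 for wild type 4 and to 1693 for mutant 4, and to 1790 with the replicate block. It rose to 3639 when wild type 3 was left out, to 3326 for mutant 2 and to 3236 for mutant 3. Neither gt1, with an unadjusted edgeR p of 0.53, nor tru1, with 0.40, was among the 2784. DESeq2 on the same 6 samples called 603 genes, 2.16% of 27888, and gave adjusted p of 0.83 for gt1 and 0.81 for tru1. The mutant and wild-type values did not overlap for 19.3% of the genes tested, and they overlapped for both members. In the authors' deposited table of transcripts at an adjusted p of up to 0.05, 15.7% of all IDs have a listed transcript, and 0 of the 5 genes do. Among these, tb1 and ba1 were at or next to 0 throughout and bif2 had 0 to 11 counts per sample. Their absence from that list therefore carries little information. All IDs likewise include the 11305 with 0 counts in every sample. Over all genes tested the median of the absolute log2 fold change was 0.30, beside 0.75 for gt1 and -0.24 for tru1.

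**Figure D3:**
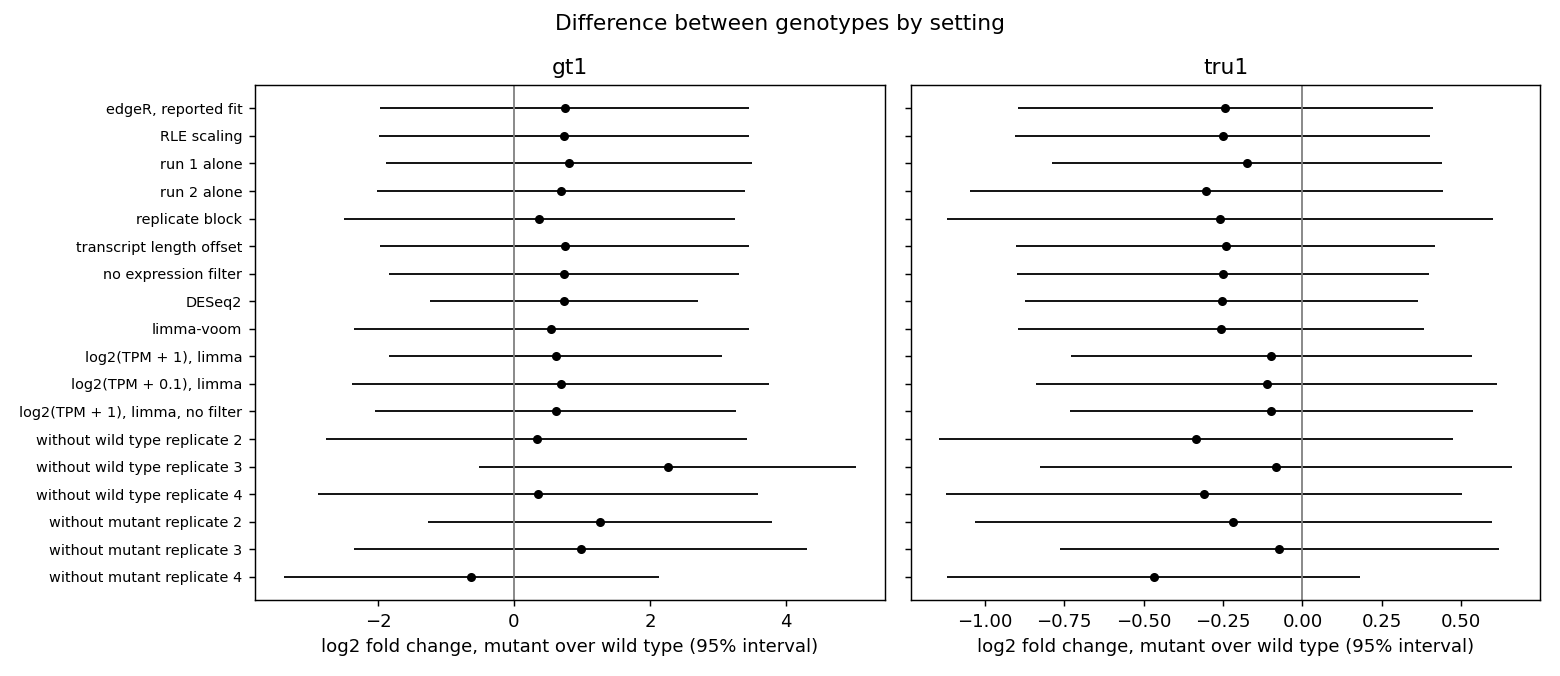
Log2 fold change, mutant over wild type (horizontal axis), of gt1 and tru1 under the reported edgeR fit and each alternative; points are estimates and bars 95% intervals. Every interval spans 0, and the gt1 estimate moves from -0.63 without mutant 4 to 2.26 without wild type 3 while that of tru1 stays between -0.47 and -0.07.

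Per length, gt1 and tru1 were the higher genes of the 5. The mean over the 6 samples was 8.35 TPM for gt1 and 6.75 TPM for tru1, which lies above 37.5% and 32.4% of the genes tested. The ranges of gt1, 1.33 to 24.3 TPM, and of tru1, 4.76 to 9.11 TPM, overlapped, so the order of these neighbours is not fixed. The next gene, bif2, had a mean of 0.155 TPM, and its highest sample, at 0.344 TPM, lay below every sample of gt1 and tru1. ba1 and tb1 came last, with ba1 at 0.0527 TPM in wild type 2 and at 0 elsewhere, and neither was separated from the lowest bif2 value, which was 0.

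Within a sample the order of gt1 and tru1 changed from one apex sample to another. gt1 was below tru1 in wild types 2 and 4 and in mutant 2, with TPM ratios of gt1 to tru1 of 0.318, 0.322 and 0.218. It was above tru1 in wild type 3, mutant 3 and mutant 4, with ratios of 1.54, 1.40 and 2.79. Samples of both genotypes lay on both sides, and the same 3 samples had gt1 higher in each run alone. The log2 ratio was -0.08 ± 1.90 in the mutants and -0.89 ± 1.31 in the wild types (SD, n = 3 each), with an exact two-sided permutation p of 0.70. The swing of the ratio came mostly from gt1, since tru1 itself varied by less than 2-fold.

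**Figure D4:**
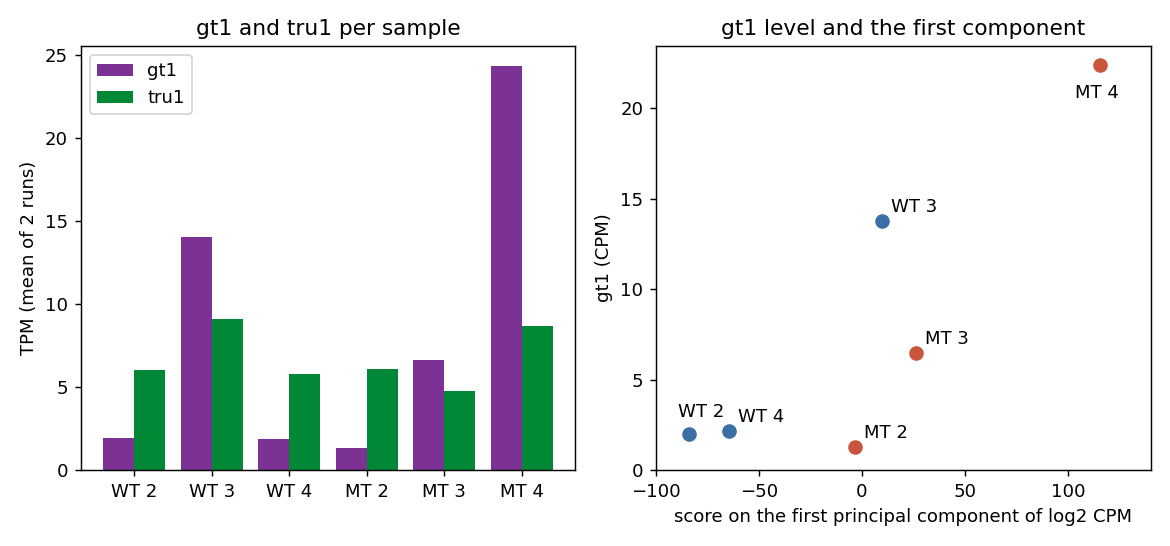
Left, TPM of gt1 and tru1 (vertical axis, mean of 2 runs) in each sample; gt1 is the lower bar in WT 2, WT 4 and MT 2 and the higher one in WT 3, MT 3 and MT 4. Right, gt1 in CPM (vertical) against the score of the sample on the first principal component of all genes (horizontal); the 3 samples with scores above 0 hold the 3 highest gt1 values, 6.45 to 22.4 CPM.

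The unevenness of gt1 was large beside that of other genes. Its SD of log2 CPM over the 6 samples was 1.64, higher than in 96.1% of the genes tested. Among the 6376 genes with a mean of 5 to 20 CPM, a range chosen after the values of both members were seen to lie in it, the median SD was 0.34 and gt1 ranked 204th from the top. The SD of tru1 was 0.33, which exceeded that of 48.0% of the same genes. Within genotypes the SD of gt1 was 1.55 in the wild types and 2.02 in the mutants, so the spread was present in both.

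**Figure D5:**
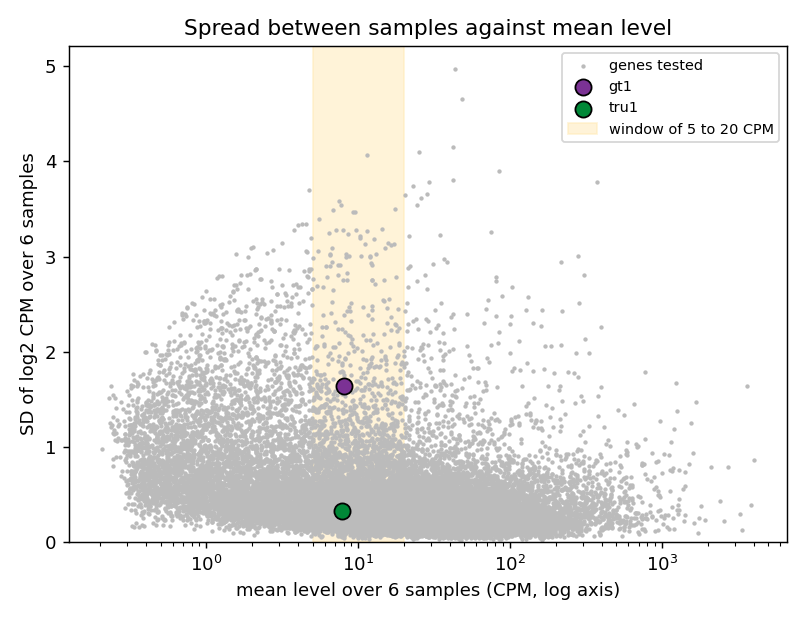
SD of log2 CPM over the 6 samples (vertical) against mean CPM (horizontal, log axis) for each gene tested, with gt1 and tru1 marked and the range of 5 to 20 CPM shaded. The members have nearly the same mean, 8.01 and 7.81 CPM, and SDs of 1.64 and 0.33.

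The high and low samples of gt1 fell on opposite sides of a split along a difference that ran through the whole libraries, but did not follow its order within each side. Wild types 2 and 4 and mutant 2, with gt1 at 1.30 to 2.15 CPM, had the lowest scores on the first principal component, and wild type 3, mutant 3 and mutant 4 had the highest. The split was narrow in the middle, where mutant 2 scored -3.21 and wild type 3 scored 9.88. On the second component, with 20.2% of the variance, they scored 59.5 and 58.2. Their gt1 levels were 1.30 and 13.8 CPM. Mutant 3, with a higher first score of 26.2, had less gt1 than wild type 3, at 6.45 CPM. The absolute loading of gt1 on the first component was above that of 97.3% of the genes, against 19.4% for tru1. Genes were not scaled to equal variance for the component, so a gene with a large SD tends to have a large loading. The SD of gt1 was above that of 96.1% of the genes tested, and that of tru1 above 45.3%. The loading of gt1 is therefore in part a restatement of its spread. gt1 is itself 1 of the genes from which the component was computed. The number of IDs with counts rose in the order of the first-component scores, from 25169 in wild type 2 to 25563 in wild type 3 and 25954 in mutant 4. The part of this library-wide difference in the gt1 values was not tested. Dissection, stage and bud content of the samples are not recorded in the labels beyond the tissue named above.

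The gene whose pattern over the 6 samples was most like that of gt1 was Zm00001d022506, out of 20874 genes with a mean of at least 1 CPM. Likeness was the mean absolute difference between centred log2 CPM values, 0.139 for this gene and 1.40 for the median gene. Its level was 0.377, 2.43 and 0.443 CPM in wild types 2, 3 and 4 and 0.200, 1.42 and 3.92 CPM in mutants 2, 3 and 4, high and low in the same samples as gt1. For tru1 the closest was Zm00001d053835, at a mean absolute difference of 0.0651 where the median gene was at 0.373. These matches rest on 6 samples and are a description only, and the files give no names for these IDs.

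How reads were assigned to the members can be read in part from the fractions in the deposited counts. The estimated counts of gt1, tru1 and bif2 were whole numbers in 12 of 12 run columns, as they were for 62.2% of the genes tested. For ba1, 1 of the 12 was not whole. The average transcript length deposited for gt1 was 1020 to 1043 bases across samples and for tru1 1182 to 1205 bases. Both lengths were lowest in wild type 4 and highest in mutant 4, with the samples in the same order for the 2 genes. The lengths thus moved with the library, and they cannot show whether the differences in gt1 levels came with a change in its transcripts. For tb1 and ba1, which had no counts or next to none, the deposited length was the same in every sample, 772 and 309 bases. Unlike the lengths of gt1 and tru1 it did not move with the library, so it tells nothing of how reads were assigned to these genes.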

How the data were processed

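Strand-specific libraries were read as pairs of 150 bases, per the labels' protocols. The submitters' processing notes name STAR, Salmon and DESeq2 without saying what each did, and the header of the gene table names version 4 gene models without the genome build of the alignment. The authors deposited estimated counts, TPM and average transcript length per gene and run. A second deposited table holds, per the file headers, the authors' mean normalized signal, log2 fold change, standard error and Wald score, and p-value per transcript. 0 columns of per-sample values were left unused.

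Estimated counts of the 2 runs were summed and rounded to whole numbers, and TPM was averaged. The test was edgeR 4.0.16 (R 4.3.3) quasi-likelihood with TMM and its filter on low counts, two-sided, without covariates, with Benjamini-Hochberg adjustment over all genes tested and a threshold of 0.05. The intervals of fold changes are approximate. Log2 CPM used a prior count of 2. Alternatives were DESeq2 1.42.0, limma 3.58.1 on voom values and on log2 TPM with pseudocounts of 1 and 0.1 (genes with TPM of at least 1 in 3 samples, or no filter), median-of-ratios scaling, no count filter, a replicate block, each run alone, an offset for transcript length and each sample left out. The tests were tested on simulated data. The members and lists were chosen with earlier results of these data known. The named genes are the 5 members and, for each one that passed the filter, the gene closest in pattern. Nothing in the labels says whether samples came from separate plants or pools, since 3 individual apices and a pool are both named, so p-values measure the spread between these samples.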

Additional observations from a re-analysis of the deposited data

How the results depend on the processing

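edgeR's count of 0 called genes became 603 with DESeq2 and 1 with limma on log2(TPM + 0.1), and was 0 in the other alternatives, leave-outs included (0 to 0). The 2784 genes at an unadjusted p under 0.05, a count whose alternatives were added after the data were seen, became 1790 with the replicate block. Leaving out 1 sample gave 1348 to 3639 such genes, and the count was 1348 for wild type 2 left out, 1475 for wild type 4 and 1693 for mutant 4. With 1 sample left out, the log2 fold change of gt1 was -0.63 to 2.26, below 0 only without mutant 4, and was 0.38 to 0.81 in the 11 other alternatives. That of tru1 was below 0 in all 17 alternatives, at -0.47 to -0.07 with 1 sample left out. That of bif2, fitted with the count filter off, turned to 0.19 with run 1 alone and was -1.14 to 0.15 with 1 sample left out. No member passed the threshold in any alternative, and the lowest adjusted p was 0.37, for gt1 without wild type 3. For none of these shifts was the cause tested. With the replicate block the log2 fold changes were 0.38 for gt1, -0.26 for tru1 and -0.08 for bif2. The deviations of samples 2, 3 and 4 from their genotype means correlated between genotypes at 0.22, -0.27 and -0.18. Nothing in the labels says that a number marks shared material. These correlations cannot decide it, since each rests on deviations from the mean of few samples. The 2 genes detected in every sample remained 2 under the 5 other rules for detection, and the 3 samples with gt1 above tru1 remained 3 in each run alone and on CPM, settings added after the data were seen. For tb1, at 0 throughout, no alternative gave a fold change. For ba1 the unfiltered limma fit on log2(TPM + 1) alone gave a value, -0.02 (SE 0.09, adjusted p 0.92), which rests on the fraction in 1 run. Low counts, 0 to 11 per sample, and the spread among samples both limit what can be said of bif2.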
